A study of Mus musculus with 12 samples.

Results

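The genes described are innate sensors of nucleic acids and of microbial products, together with the adaptor proteins that carry their signals. They were chosen by gene symbol. The 10 members are Ifih1, Ddx58, Dhx58, Mavs, Tlr2, Tlr3, Myd88, Ticam1, Tmem173 and Zbp1, out of 55536 genes in the annotation. All 10 passed the filter on low counts, Zbp1 only through the libraries with IFN-γ. Their RNA was measured by bulk RNA-seq of total RNA from primary mouse OPCs (oligodendrocyte precursor cells, the progenitors of myelinating cells). The 12 libraries form 4 groups of 3 replicates. Ctr cells received neither agent. EZH2i cells were given EPZ011989, a small-molecule inhibitor of the histone H3K27 methyltransferase EZH2, for 4 days at a concentration of 1.5 μM, renewed after each 48 h. IFN-γ cells were given the cytokine at 100 ng/ml for 6 h, and IFN-γ + EZH2i cells received the inhibitor as above and then IFN-γ with new inhibitor for the last 6 h.

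All groups came from pups at P4 to P6, with brains pooled within an experiment and the replicates taken from different litters. The labels name the cells as Sox10GFP+, a reporter of the oligodendrocyte lineage driven by Sox10, whereas the protocol allows either sorting on this reporter or magnetic selection on CD140a, and which method gave which library was not stated. The labels also give EAE as the mouse model for every library, but no immunization is described for these cultures. Library totals ran from 17.4 M to 66.5 M counts (median 33.6 M). The 7 OPC markers were all above 1 CPM in every group, and their sum was 8111 to 8375 CPM in Ctr, 6700 to 7100 with EZH2i, 5292 to 7130 with IFN-γ and 4304 to 5199 with both agents, with Pdgfra and Cspg4 lower after IFN-γ in both comparisons and Gpr17 in that against EZH2i. Astrocyte markers (5 genes) summed to 380 to 1406 CPM over the libraries, and the part of cell composition in the results below was not tested. The IFN-γ response genes Irf1 and Gbp2 had fitted log2 fold changes between 6.31 and 10.1 in both comparisons with and without IFN-γ. In these bulk libraries, fewer cells of a type and less RNA per cell cannot be told apart.

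Cells detect foreign or misplaced nucleic acids with receptors in distinct compartments. MDA5 (Ifih1) and RIG-I (Ddx58) are cytosolic RNA helicases that bind viral RNA and signal through the mitochondrial adaptor MAVS, and LGP2 (Dhx58) is a related helicase that lacks signaling domains and modulates them. Toll-like receptors sit in the plasma membrane or in endosomes. TLR2 recognizes bacterial lipoproteins at the surface and uses MYD88, whereas TLR3 recognizes duplex RNA in endosomes and uses TRIF (Ticam1). STING (Tmem173) is the endoplasmic reticulum adaptor downstream of the cytosolic DNA sensor cGAS, and ZBP1 binds Z-form nucleic acids and can trigger necroptosis through RIPK3 and MLKL. Many of these sensors are known as interferon-stimulated genes in other cell types. The GAS element is known from promoters that respond to IFN-γ, and the ISRE is the element bound by interferon regulatory factors.

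Promoter windows of 300 bases (250 before to 50 after the RefSeq transcription start, GRCm38.p6) were available for 7 of the 10 members and were searched on both strands. The letters TTCNNNGAA were used for GAS and GAAANNGAAA for ISRE. Myd88 was the only member of the 7 with a GAS match, which spans 46 to 38 bases before its start and overlaps an ISRE match. Ifih1 and Ddx58 held an ISRE match after the start, at 32 and 2 bases into the transcript, respectively. No GAS or ISRE letters were in the windows of Mavs, Tlr2, Tlr3 and Ticam1. The κB motif, searched by name as the binding letters of NF-κB, was found in the windows of Tlr2 and Tlr3. Over all 32851 windows of this length, 8.3% held GAS letters, 3.4% ISRE letters and 8.5% κB letters. The stretches with GAS or ISRE letters are shown because these are the elements named for interferon responses, with the matched letters in capitals and each written 5′ to 3′ on the gene's own strand. They lie at chr2:62646206-62646233 (minus strand), chr4:40239804-40239833 (minus strand) and chr9:119340042-119340071 (minus strand).
Ifih1: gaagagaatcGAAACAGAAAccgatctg
Ddx58: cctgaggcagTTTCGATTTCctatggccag
Myd88: gcggagcTTCTCGGAAAGCGAAAgaaggag
A match of letters is a description of the sequence and not a measured binding site.

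IFN-γ raised 8 of the 10 members in cells without EZH2i, and the same 8 in cells with EZH2i. The comparisons ask which sensors and adaptors OPCs express after 6 h of IFN-γ. Over all 18995 genes tested, 6.65% rose without EZH2i and 5.90% rose with it, against 2.10% and 2.17% that fell (edgeR, Benjamini-Hochberg adjusted p under 0.05). Zbp1 and the RNA helicase genes Ifih1 and Ddx58 had the highest fitted changes. Zbp1 was near 0 counts without IFN-γ and passed the filter only through libraries with it, so it could hardly be called as falling. The 2 members that did not pass the test were the adaptors Mavs and Ticam1. The median log2 fold change over the 10 members was 2.45 and 2.34, beside 0.00 for all genes tested in both comparisons. For the 8 members, all libraries with IFN-γ lay above all libraries without it in both comparisons, which was so for 13.5% and 11.8% of all genes tested in the upward direction, while 0 members lay below in all libraries (9.52% of genes against Ctr). The replicate numbers pair the libraries of the comparison with EZH2i, and with the replicate as a block all 8 members were again called while the count over all genes went from 1533 to 3661. Levels below are CPM normalized with TMM factors, and a level in CPM is compared only within a gene.

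**Figure D1:**
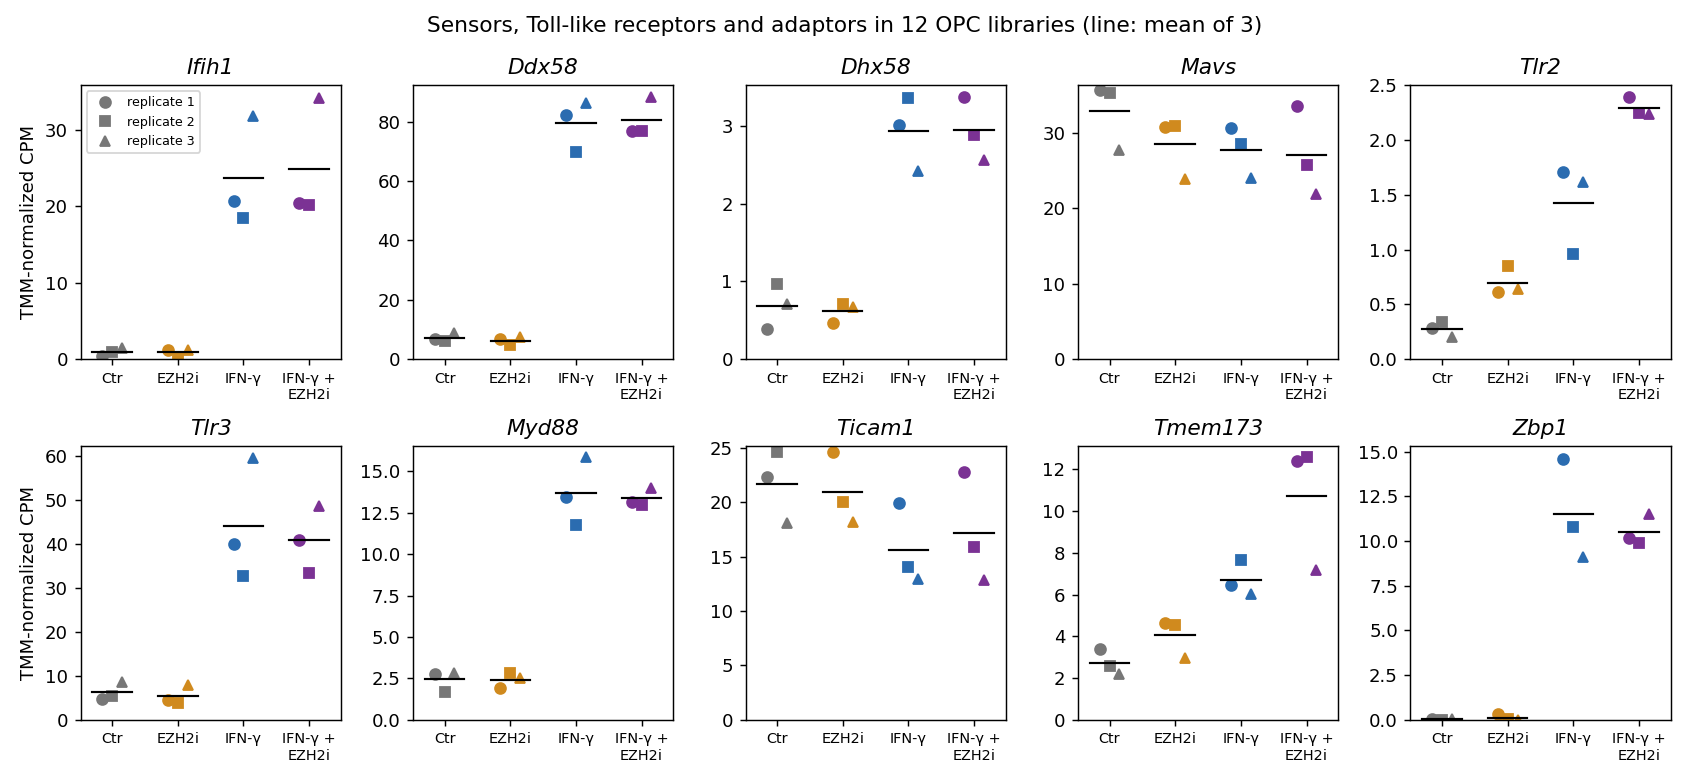
TMM-normalized CPM of each of the 10 members (linear axes from 0, a scale of its own for each gene) in the 4 groups, with 1 symbol per replicate and a line at the mean of 3. The IFN-γ libraries of all members except Mavs and Ticam1 sit above all libraries without IFN-γ, while Mavs and Ticam1 overlap between groups. Tlr2 and Tmem173 have their highest means with both agents (2.29 and 10.7 CPM).

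Ifih1, which encodes MDA5, lies at chr2:62595798-62646255 on the minus strand. Its level was 0.390, 0.903 and 1.46 CPM in the Ctr replicates and 1.14, 0.301 and 1.23 CPM with EZH2i. With IFN-γ it was 20.6, 18.5 and 31.8 CPM, and with both agents 20.4, 20.2 and 34.2 CPM. The groups with and without IFN-γ did not overlap, and replicate 3 was the highest within both IFN-γ groups. The log2 fold change was 4.62 (SE 0.53, adjusted p = 9.99e-05, edgeR) against Ctr and 4.78 (SE 0.53, adjusted p = 7.07e-05, edgeR) against EZH2i. The Ctr libraries held between 11 and 86 counts, and without Ctr replicate 3 the first value was 5.27.

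Ddx58, which encodes RIG-I, lies at chr4:40203773-40239828 on the minus strand. It was at 6.92, 5.99 and 8.84 CPM in Ctr and at 6.61, 4.60 and 7.42 CPM with EZH2i. The level was 82.2, 70.0 and 86.5 CPM with IFN-γ and 76.8, 76.8 and 88.3 CPM with both agents. Both pairs of groups were far apart relative to the spread within them. The rise was 10.9-fold against Ctr (log2 fold change 3.44, SE 0.20, adjusted p = 2.29e-07, edgeR) and 12.9-fold against EZH2i (log2 fold change 3.69, SE 0.20, adjusted p = 1.20e-07, edgeR), which gave Ddx58 the lowest adjusted p of the 10 members in both comparisons.

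Dhx58, which encodes LGP2, lies at chr11:100694884-100704271 on the minus strand. It was low in all libraries, at 0.390, 0.960 and 0.713 CPM in Ctr and 0.465, 0.712 and 0.668 CPM with EZH2i. It reached 3.02, 3.36 and 2.42 CPM with IFN-γ and 3.38, 2.89 and 2.56 CPM with both agents. The lowest IFN-γ library was above the highest library without it. The log2 fold change was 2.11 (SE 0.32, adjusted p = 0.0011, edgeR) against Ctr and 2.24 (SE 0.32, adjusted p = 0.00064, edgeR) against EZH2i, from 70 counts in total over the Ctr libraries and 83 over the EZH2i libraries. The antisense gene Dhx58os overlaps Dhx58 and held at most 3 counts in any library.

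Mavs, the adaptor that both helicases signal through, lies at chr2:131234063-131248025 on the plus strand. In contrast to the helicases it was abundant in Ctr, at 35.6, 35.3 and 27.7 CPM, and had 30.8, 30.8 and 23.9 CPM with EZH2i. Its level was 30.6, 28.5 and 23.9 CPM with IFN-γ and 33.6, 25.7 and 21.8 CPM with both agents. Replicate 3 was the lowest in every group, and all groups overlapped. The log2 fold change with IFN-γ was -0.25 (95% interval -0.65 to 0.15, adjusted p = 0.55, edgeR) against Ctr and -0.08 (95% interval -0.48 to 0.32, adjusted p = 0.93, edgeR) against EZH2i, and these intervals do not reach a change of 2-fold in either direction.

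**Figure D2:**
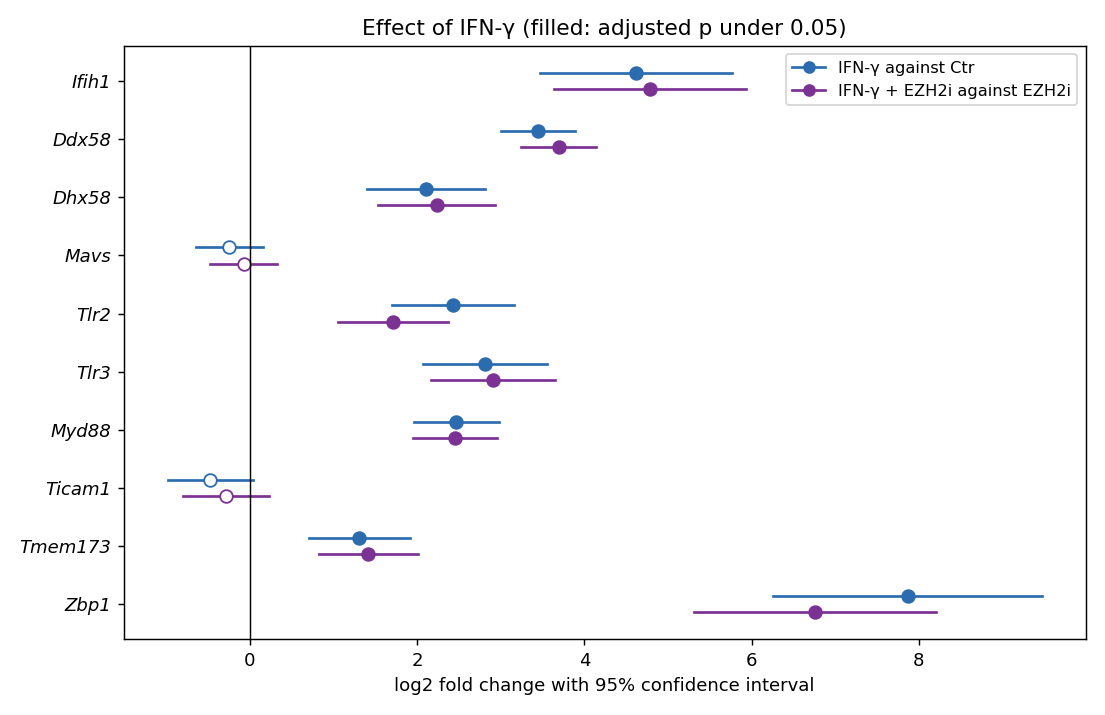
Log2 fold change with IFN-γ (horizontal axis, lines are 95% confidence intervals) for each member, without EZH2i in blue and with EZH2i in purple, where filled points passed an adjusted p under 0.05 in edgeR. The 8 filled members run from 1.31 for Tmem173 to 7.87 for Zbp1 against Ctr, and the intervals of Mavs and Ticam1 include 0.

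Tlr3, the endosomal receptor for duplex RNA, lies at chr8:45395665-45411080 on the minus strand. Its level was 4.68, 5.36 and 8.63 CPM in Ctr and 4.47, 3.75 and 7.98 CPM with EZH2i. It was 40.0, 32.7 and 59.6 CPM with IFN-γ and 40.8, 33.3 and 48.6 CPM with both agents. Replicate 3 was the highest in all 4 groups, and the groups with and without IFN-γ were apart. The rise was 7.01-fold against Ctr (log2 fold change 2.81, SE 0.34, adjusted p = 0.000175, edgeR) and 7.50-fold against EZH2i (log2 fold change 2.91, SE 0.34, adjusted p = 0.000127, edgeR). Ticam1, its adaptor, lies at chr17:56269319-56276786 on the minus strand and did not rise. It was at 22.4, 24.6 and 18.1 CPM in Ctr and 24.6, 20.0 and 18.2 CPM with EZH2i. With IFN-γ it was at 19.9, 14.01 and 12.9 CPM, and with both agents at 22.8, 15.9 and 12.9 CPM. All groups overlapped. The log2 fold change was -0.47 (95% interval -0.98 to 0.04, adjusted p = 0.31, edgeR) against Ctr and -0.29 (95% interval -0.80 to 0.22, adjusted p = 0.66, edgeR) against EZH2i.

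Tlr2, the surface receptor for lipoproteins, lies at chr3:83836272-83841767 on the minus strand and was among the lowest members in every group. It was at 0.284, 0.339 and 0.204 CPM in Ctr (6 to 12 counts per library) and at 0.608, 0.849 and 0.638 CPM with EZH2i (17 to 42 counts). The level was 1.71, 0.959 and 1.62 CPM with IFN-γ and 2.39, 2.25 and 2.24 CPM with both agents. The 4 groups did not overlap with each other, in the order Ctr, EZH2i, IFN-γ and both. With IFN-γ the rise was 5.38-fold against Ctr (log2 fold change 2.43, SE 0.33, adjusted p = 0.000464, edgeR) and 3.27-fold against EZH2i (log2 fold change 1.71, SE 0.30, adjusted p = 0.00293, edgeR). Microglia and macrophages are known to express Tlr2, and 0 of their 10 markers had a group mean above 1 CPM, although P2ry12 was above 1 CPM in 3 of the 6 libraries with IFN-γ (highest 1.34 CPM). The 10 markers together summed to 0.734 to 1.09 CPM in Ctr, 1.07 to 1.29 with EZH2i, 1.31 to 1.74 with IFN-γ and 1.34 to 1.71 with both agents, with C1qa at 0 counts in all 12 libraries. Of these markers 2 passed the filter on low counts, and 0 passed the test with IFN-γ. The 5 pericyte and fibroblast markers summed to 0.851 to 1.66 CPM in Ctr, 1.88 to 2.19 with EZH2i, 2.95 to 4.61 with IFN-γ and 4.27 to 7.26 with both, with Kcnj8 and Lum past the test in both comparisons. The part of these cells in the levels of Tlr2 and Tmem173 was not tested.

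Myd88, the adaptor of TLR2 and of most other Toll-like receptors, lies at chr9:119335934-119341411 on the minus strand. Its level was 2.77, 1.69 and 2.85 CPM in Ctr and 1.89, 2.85 and 2.55 CPM with EZH2i. It was 13.5, 11.8 and 15.8 CPM with IFN-γ and 13.16, 12.98 and 13.99 CPM with both agents. The IFN-γ libraries were apart from the others and close to each other. The rise was 5.54-fold against Ctr (log2 fold change 2.47, SE 0.23, adjusted p = 1.59e-05, edgeR) and 5.47-fold against EZH2i (log2 fold change 2.45, SE 0.23, adjusted p = 1.58e-05, edgeR). Thus the 2 Toll-like receptor adaptors differed, with Myd88 past the test in both comparisons and Ticam1 in neither, although the difference between these genes was not tested. Myd88 overlaps Acaa1a on the opposite strand, which held 914 to 3675 counts per library, and although the library kit marks strand, the strand setting of the quantification is not given in the sources used here.

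Tmem173, which encodes STING, is on chromosome 18 from base 35733679 to 35740554 on the minus strand. It was at 3.37, 2.60 and 2.19 CPM in Ctr and 4.65, 4.52 and 2.95 CPM with EZH2i. The level was 6.43, 7.64 and 6.05 CPM with IFN-γ and 12.4, 12.6 and 7.16 CPM with both agents. Replicate 3 was the lowest in every group. The rise with IFN-γ was 2.48-fold against Ctr (log2 fold change 1.31, SE 0.28, adjusted p = 0.00985, edgeR) and 2.66-fold against EZH2i (log2 fold change 1.41, SE 0.27, adjusted p = 0.00554, edgeR), the smallest among the 8 members that rose. Without Ctr replicate 3 the first call was lost (log2 fold change 1.16, adjusted p = 0.0544, edgeR), and on the log2(TPM + 1) scale the rise against EZH2i was 0.76 (adjusted p = 0.181, limma).

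Zbp1 lies at chr2:173206612-173218923 on the minus strand and went from near absence to the range of Mavs in TPM. Most of this TPM was assigned to a transcript of 770 bases. By counts Zbp1 stayed below Mavs, which had 912, 1069 and 1551 counts with IFN-γ. The counts of Zbp1 were 1, 0 and 4 in the Ctr libraries and 9, 1 and 1 in the EZH2i libraries. With IFN-γ it had 436, 405 and 592 counts (14.6, 10.8 and 9.13 CPM), and with both agents 238, 325 and 463 counts (10.2, 9.88 and 11.5 CPM). The rise was detected in every IFN-γ library, and the basal level rests on a few counts. The ratio of summed counts per library size was 220 against Ctr (95% exact interval 94.0 to 678, counting error only) and 113 against EZH2i (95% exact interval 62.9 to 227). The fitted log2 fold changes were 7.87 (SE 0.74, adjusted p = 1.63e-05, edgeR) and 6.76 (SE 0.66, adjusted p = 2.47e-05, edgeR). A single EZH2i library, replicate 1, held 9 of the 11 counts, and without it the value against EZH2i was 8.85. Without EZH2i replicate 3 the value was 6.00, and without Ctr replicate 3 the value against Ctr was 8.85.

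TPM, which is scaled by transcript length, was used to order the members within a group. In Ctr the adaptors were highest, with Mavs at 7.90 ± 1.13 TPM and Ticam1 at 5.09 ± 0.98 TPM (SD, n = 3). Tmem173 (1.78 ± 0.48 TPM), Ddx58 (1.62 ± 0.61 TPM), Tlr3 (1.25 ± 0.56 TPM), Myd88 (0.906 ± 0.332 TPM) and Dhx58 (0.559 ± 0.175 TPM) followed, and neighbours among these 5 overlapped between libraries. Ifih1 (0.161 ± 0.121 TPM), Tlr2 (0.0638 ± 0.0165 TPM) and Zbp1 (0.0287 ± 0.0412 TPM) were lowest and overlapped as neighbours. With IFN-γ the order changed, and Ddx58 was highest at 20.3 ± 1.5 TPM, apart from Tlr3 at 10.3 ± 2.8 TPM. Zbp1 came to 9.99 ± 2.54 TPM, Mavs to 7.78 ± 1.32 TPM, Myd88 to 5.79 ± 0.53 TPM, Tmem173 to 4.92 ± 1.01 TPM, Ifih1 to 4.27 ± 0.94 TPM and Ticam1 to 4.23 ± 0.91 TPM, and each of these overlapped with its neighbour. The place of Zbp1 rests on the assignment of most of its TPM to a short transcript, given below. Dhx58 (1.68 ± 0.47 TPM) and Tlr2 (0.379 ± 0.079 TPM) were lowest, each apart from the gene above it. With both agents Ddx58 (18.5 ± 1.3 TPM) was again highest and Dhx58 (1.57 ± 0.37 TPM) and Tlr2 (0.569 ± 0.057 TPM) lowest.

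The transcripts behind these levels were estimated by Salmon and are given without a test. Zbp1 reads under IFN-γ were assigned mainly to the short coding transcript Zbp1-202 of 770 bases, with 82.1 to 83.8% of the gene's TPM with IFN-γ and 75.2 to 82.0% with both agents. The longer coding transcript Zbp1-201 (1989 bases) had 8.39 to 10.1% and 11.1 to 19.6%. Tlr3-205 was the main Tlr3 transcript in all IFN-γ libraries, with 55.9 to 65.8% and 54.8 to 58.0%. Mavs-201 and Myd88-201, both coding, had at least 66.7% and 88.9% of their gene's TPM in every library. For Tmem173 the retained-intron transcript Tmem173-206 had 32.7 to 42.4% with IFN-γ and 36.6 to 55.9% in Ctr. A share of the TPM of Tmem173 therefore does not come from coding transcripts, and the same holds for Dhx58, Ddx58 and Ifih1. Dhx58-201, the only coding Dhx58 transcript, had 10.57 to 33.03% in Ctr and 39.77 to 47.45% with IFN-γ. With EZH2i alone it had 12.92 to 51.95%, which spans the range with IFN-γ. The Ctr shares rest on 11, 17 and 42 counts for the whole gene. Coding Ddx58-201 had 33.85 to 66.33% in Ctr and 53.06 to 65.5% with IFN-γ, and coding Ddx58-209 had 0% in both groups. The retained-intron transcript Ifih1-203 had 0 to 15.5% in Ctr and 13.13 to 28.72% with IFN-γ. The order by TPM above counts all transcripts of a gene. Tlr2 and Ticam1 have 1 annotated transcript each.

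In the fit without a replicate block, EZH2i changed none of the 10 members past the threshold, either alone or under IFN-γ. The comparisons ask whether inhibition of the enzyme that deposits H3K27me3 alters the sensors before or during the IFN-γ response. With edgeR 0 of 10 members were called in both comparisons, and 1 and 2 members had an unadjusted p under 0.05. DESeq2 and limma also called 0 in both. With the replicate block 1 member was called in each comparison, Tlr2 against Ctr and Tmem173 under IFN-γ. The replicate numbers were taken to pair only the comparison under IFN-γ. Few genes of the whole table were called, 0.405% against Ctr and 0.353% against IFN-γ (77 and 67 genes). This background depended on the fit, with 308 and 264 genes called by DESeq2 and 771 and 748 with the replicate block. The median log2 fold change of the members was -0.07 and 0.01, beside 0.01 and -0.01 for all genes tested.

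**Figure D3:**
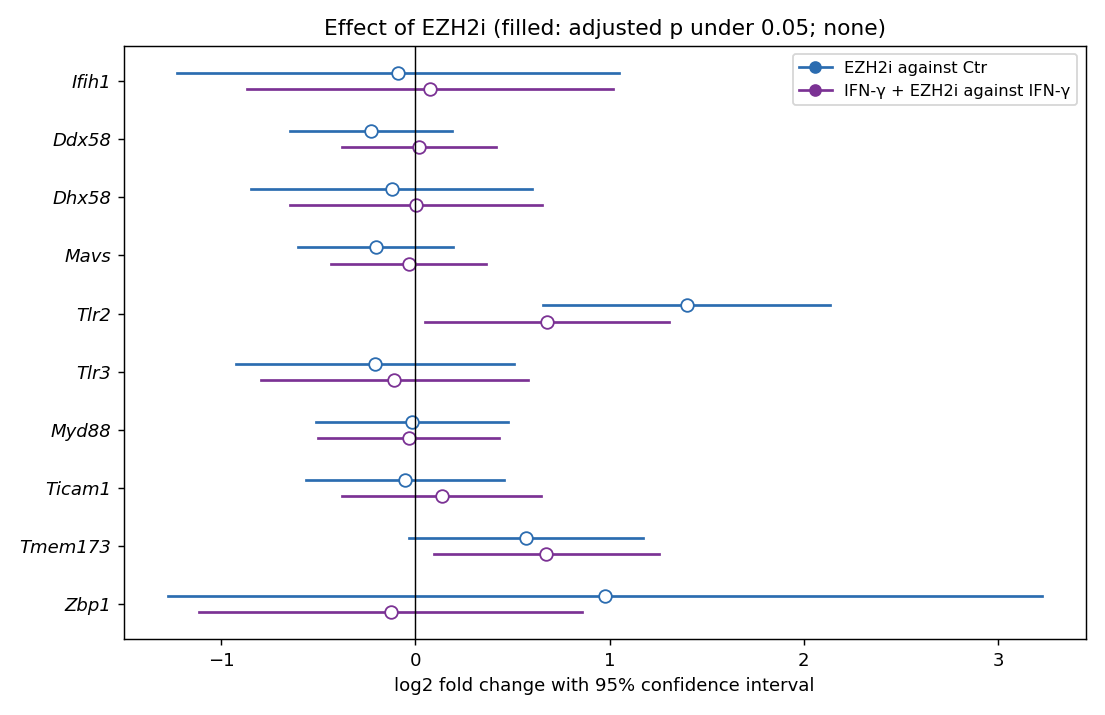
Log2 fold change with EZH2i (horizontal axis, lines are 95% confidence intervals) for each member, without IFN-γ in blue and under IFN-γ in purple, with open points because no member passed an adjusted p under 0.05 in edgeR without a replicate block. Tlr2 has intervals above 0 in both comparisons and Tmem173 under IFN-γ, before adjustment for the genes tested.

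Tlr2 had the largest fitted value with EZH2i. It was 2.63-fold higher than in Ctr (log2 fold change 1.40, 95% interval 0.66 to 2.14, unadjusted p = 0.00147, adjusted p = 0.139, edgeR) and higher in 3 of 3 EZH2i libraries than in any Ctr library. Under IFN-γ it was 1.60-fold higher with the inhibitor (log2 fold change 0.68, 95% interval 0.05 to 1.31, unadjusted p = 0.0364, adjusted p = 0.712, edgeR), again with no overlap of libraries. Libraries did not overlap in the upward direction for 7.37% and 6.08% of all genes tested. The values against Ctr rest on 26 counts over the Ctr libraries and 90 over the EZH2i libraries, and both comparisons failed the correction in this fit. With the replicate as a block the value against Ctr was 1.43 and passed the test (adjusted p = 0.0464, edgeR), where 771 genes were called. Under IFN-γ the blocked value was 0.68 (adjusted p = 0.214, edgeR). DESeq2 gave an adjusted p of 0.0554 against Ctr. The replicate numbers were not taken to pair the libraries against Ctr. The summed pericyte and fibroblast markers given above were also higher with EZH2i than in Ctr in every library, and so were the 5 neuron markers (16.0 to 19.4 CPM in Ctr and 30.1 to 49.0 with EZH2i). The 5 oligodendrocyte markers were lower (1470 to 1838 CPM in Ctr and 807.8 to 1287 with EZH2i). The 5 astrocyte markers overlapped (419.2 to 891.5 CPM in Ctr and 594.1 to 1350 with EZH2i). The part of these cells in the values of Tlr2 was not tested.

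Tmem173 was 1.48-fold higher with EZH2i than in Ctr (log2 fold change 0.57, 95% interval -0.03 to 1.17, adjusted p = 0.767, edgeR), with overlapping libraries. Under IFN-γ it was 1.60-fold higher (log2 fold change 0.67, 95% interval 0.09 to 1.26, unadjusted p = 0.0264, adjusted p = 0.638, edgeR), where replicate 1 went from 6.43 to 12.4 CPM, replicate 2 from 7.64 to 12.6 CPM and replicate 3 from 6.05 to 7.16 CPM. The replicate numbers pair the libraries in this comparison, and with the replicate as a block the value was 0.63 and passed the test (adjusted p = 0.0448, edgeR). Thus 1 of 10 members was called higher, while 3.11% of all genes were called higher in that fit. The block was fitted to all 12 libraries, including those of Ctr, and a blocked fit of only the paired libraries was not run. The other 8 members had log2 fold changes with EZH2i between -0.23 for Ddx58 and 0.97 for Zbp1 against Ctr. The sign was not stable for Zbp1, which was at -1.11 without EZH2i replicate 1. On the log2(TPM + 1) scale Ifih1, Ddx58, Mavs, Tlr3, Myd88 and Ticam1 were above 0. The median of all genes was itself 0.19 on that scale, and of these genes only Ticam1 (0.215) was above it. The intervals of Ddx58, Dhx58, Mavs, Tlr3, Myd88 and Ticam1 lay within 2-fold in both comparisons, whereas those of Ifih1 (-1.23 to 1.05 against Ctr) and Zbp1 (-1.27 to 3.23 against Ctr) were wider, so a change of 2-fold could not be resolved for them.

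The interaction tests whether EZH2i alters the size of the IFN-γ response. None of the 10 members was called (adjusted p of at least 0.9999, edgeR), 0 had an unadjusted p under 0.05, and DESeq2 and limma called 0. Over all genes 0 were called, beside 127 at an unadjusted p under 0.05 with edgeR and 0 called with DESeq2. The largest fitted differences were -1.10 for Zbp1 (95% interval -3.56 to 1.35, unadjusted p = 0.347, edgeR), which turned to 0.98 without EZH2i replicate 1, and -0.72 for Tlr2 (95% interval -1.68 to 0.24, unadjusted p = 0.130, edgeR), which was 0.01 on the log2(TPM + 1) scale.

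Other genes of the same pathways were taken from lists of 68 symbols, of which 50 passed the filter on low counts. Of these 50, 18 rose and 0 fell with IFN-γ against Ctr, and 21 rose and 1 fell against EZH2i, with a median log2 fold change of 0.34 and 0.52. With the replicate block, in the paired comparison with EZH2i, 25 rose and 3 fell (Nlrx1, Irak2 and Traf3). That fit called 3661 of all 18995 genes tested in either direction, beside 1533 without the block. The share of all genes tested that rose, 6.65% and 5.90% as given above, is for the fit without the block. Among genes for cytosolic DNA sensing, 7 of 9 tested rose in both comparisons. Some list genes, among them Ifi204, Ifi205, Mndal and Cd14, passed the filter only through libraries with IFN-γ and could hardly be called as falling. Where 10 counts were required in every library, 9 pathway genes were called against Ctr and 13 against EZH2i. The PYHIN gene Ifi204 went from 5, 3 and 1 counts in Ctr to 233, 186 and 793 counts with IFN-γ (adjusted p = 4.00e-05, edgeR). Its ratio of counts per library size was 103 (95% exact interval 54.3 to 226, counting error only, without the spread between replicates). Its paralog Ifi205, at 0 counts in all Ctr libraries, was at least 4.60-fold higher against a floor of 3 counts per library. The PYHIN genes are near-identical neighbours, so the split of reads between them is uncertain. Cgas, which makes the cyclic dinucleotide that activates STING, had 3.69 ± 0.22 CPM in Ctr and 6.20 ± 0.29 CPM with IFN-γ (SD, n = 3; log2 fold change 0.75, adjusted p = 0.0107, edgeR).

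**Figure D4:**
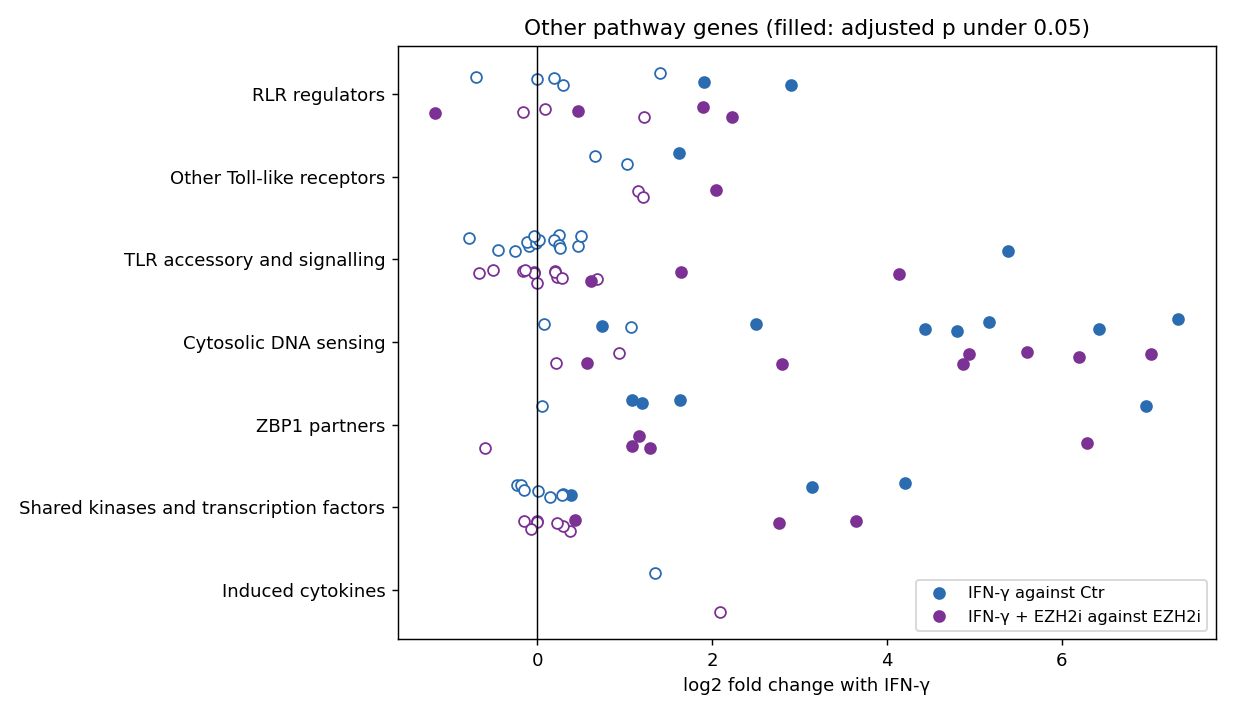
Log2 fold change with IFN-γ (horizontal axis) of the 50 tested pathway genes on 7 lists, 1 point per gene, without EZH2i in blue and with EZH2i in purple, where filled points passed an adjusted p under 0.05 in edgeR. Cytosolic DNA sensing has 7 of 9 filled points in both comparisons, and 1 gene, Nlrx1, is filled below 0 with EZH2i.

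Of 7 regulators of the RNA helicases, 2 rose against Ctr, and 3 rose and 1 fell against EZH2i. Trim25 and Rnf135, ubiquitin ligases that activate RIG-I, had log2 fold changes of 2.91 (adjusted p = 1.50e-05, edgeR) and 1.91 (adjusted p = 0.000437, edgeR) against Ctr. The deubiquitinase gene Cyld was called against EZH2i at 0.46 (adjusted p = 0.0295, edgeR). Nlrx1, which encodes a mitochondrial NOD-like protein, fell by 1.17 against EZH2i (adjusted p = 0.0169, edgeR). Of the 10 other Toll-like receptor genes, 3 passed the filter and Tlr6, a partner of TLR2, rose by 1.62 against Ctr (adjusted p = 0.0273, edgeR). Tlr8 was at 0 counts in all 12 libraries. Among 15 tested accessory and signaling genes, Cd14, a co-receptor, went from 0, 0 and 4 counts in Ctr to 42, 75 and 94 counts with IFN-γ (adjusted p = 0.000533, edgeR). Its ratio of counts per library size was 40.5 (95% exact interval 15.6 to 149.9, counting error only). Unc93b1, the chaperone that delivers endosomal Toll-like receptors, was called against EZH2i (log2 fold change 1.65, adjusted p = 0.00707, edgeR), as was Tirap (0.61, adjusted p = 0.0427, edgeR), and in the same fit neither was called against Ctr. Tirap had a similar value there (0.50, adjusted p = 0.0966, edgeR) and was called by DESeq2 (adjusted p = 0.0419), and its interaction had an unadjusted p = 0.659 (edgeR). For Unc93b1 the interaction had an unadjusted p = 0.0261 and an adjusted p = 0.9999 (edgeR).

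The partners of ZBP1 rose in 4 of 5 cases in both comparisons. Mlkl, the executioner of necroptosis, went from 0.317 ± 0.068 CPM in Ctr to 38.0 ± 3.6 CPM with IFN-γ (SD, n = 3; log2 fold change 6.96, adjusted p = 8.62e-10, edgeR), and Casp8 rose by 1.63 on the log2 scale (adjusted p = 0.00112, edgeR). Adar, an RNA-editing enzyme with a form that binds Z-RNA, rose by 1.201 (adjusted p = 1.56e-05, edgeR), and the kinase gene Ripk1 by 1.08 (adjusted p = 0.000227, edgeR). Ripk3, which links ZBP1 to MLKL, was at 0.387 ± 0.179 CPM in Ctr and 0.421 ± 0.134 CPM with IFN-γ (SD, n = 3) and was not called. Of 10 shared kinases and transcription factors, 3 rose in both comparisons, with Irf5 at 4.21 (adjusted p = 0.00132, edgeR) and Irf7 at 3.14 (adjusted p = 7.94e-06, edgeR) on the log2 scale against Ctr, and the kinase gene Tbk1 at 0.39 (adjusted p = 0.0338, edgeR). Of 7 cytokine genes that these pathways induce, 1 (Ccl5) passed the filter and was not called, and Ifnb1 held 2 counts in a single library and 0 in the other 11. With edgeR without a replicate block, no pathway gene was called with EZH2i in either comparison or in the interaction. In that fit 3 of 50 (Cd14, Cgas and Mlkl) had an unadjusted p under 0.05 against Ctr. Against IFN-γ it was 3 (Trim25, Unc93b1 and Cgas), and in the interaction 2 (Unc93b1 and Mlkl). DESeq2 called 1 against Ctr (Cgas, log2 fold change 0.57, adjusted p = 0.0424) and 0 in the others. The replicate block also called Cgas against Ctr (0.57, adjusted p = 0.0407, edgeR) and 0 in the others. The replicate numbers were not taken to pair the libraries against Ctr.

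The genes most like each member over the 12 libraries were found by the Pearson correlation of log2 CPM among 14670 candidates. The libraries form groups with and without IFN-γ, and all points share that split and their library depths. The most alike genes were Gbp9 for Ifih1 (r = 0.995), Erap1 for Ddx58 (r = 0.998), Clic4 for Dhx58 (r = 0.991), Tbxas1 for Tlr3 (r = 0.991), Gm12216 for Myd88 (r = 0.992) and Prdm1 for Zbp1 (r = 0.996). Tlr2 was most like Ly6h (r = 0.974) and Tmem173 most like Timp1 (r = 0.986). The adaptors without a called change were most like Rps6kb2 for Mavs (r = 0.977) and Dop1b for Ticam1 (r = 0.980).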

How the data were processed

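The authors quantified the reads of 12 libraries with Salmon 0.8.2 (GRCm38), per the labels' processing notes, which also list STAR and DESeq2. They deposited for each transcript an estimated count, not scaled, and a TPM value divided by effective length. The authors' DESeq2 tables of fold changes and p-values were not used. Estimated counts were summed per gene (GENCODE M21 annotation, to which all 141862 transcripts matched) and rounded. Tests were run with edgeR 4.0.16 in R 4.3.3, as a quasi-likelihood fit of all libraries with TMM factors, the default filter (18995 genes) and group as the only term. Adjusted p-values follow Benjamini and Hochberg and cover all genes tested.

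The members and lists were chosen with earlier results of these data known. Named were all members, per list and IFN-γ comparison the called genes with the 2 largest absolute changes in each direction, and each member's most similar gene with a mean of at least 1 CPM. Cgas, Ripk3, Tlr8, Ifnb1, Ccl5, Cyld, Tirap, Adar, Ripk1, Tbk1, Irak2, Traf3 and the marker genes were named after their values were seen. Of 68 list genes, 1 symbol (Pyhin1) was not matched.

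Library totals of 17.4 M to 66.5 M counts limit genes under 1 CPM. The p-values measure the spread between litters. Chi-square values per gene between replicates of a group were 32.05 to 170.9, well above sampling noise. Deviations of same-numbered libraries correlated at 0.496 to 0.621 between EZH2i and IFN-γ + EZH2i and at 0.493 to 0.642 between IFN-γ and IFN-γ + EZH2i. Against Ctr, replicates 1 and 3 correlated at 0.49 and 0.54 for IFN-γ and at 0.44 and 0.49 for EZH2i. Replicate 2 was at 0.0854 and 0.0467 there, so numbers were taken to pair only the comparisons without Ctr. Alternatives were DESeq2 1.42.0, RLE factors, other filters, the replicate block (fitted to all 12 libraries), length-scaled TPM, limma 3.58.1 on log2 TPM with pseudocounts of 1 and 0.1, fits of only 6 libraries, fits without 1 library, and calls that also needed an absolute log2 change over 1. Promoter sequences came from RefSeq. A further IFN-γ response gene is not reported here.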

Additional observations from a re-analysis of the deposited data

How the results depend on the processing

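Depth limits what could be resolved for Dhx58, Tlr2 and Zbp1, which had under 100 counts in all Ctr libraries together. The 8 members called with IFN-γ kept their direction under all alternatives run (Tlr2 and Zbp1 gave no value where 10 counts were required in every library), and Tmem173 was the member that lost its call. Against Ctr it lost it without Ctr replicate 3 (1.16, adjusted p = 0.0544, edgeR) and with limma on log2(TPM + 1) without a filter (1.09, adjusted p = 0.0852), so the members called there ranged from 7 to 8. Against EZH2i it was lost with limma on log2(TPM + 1) (0.762, adjusted p = 0.181, and 0.273 without a filter) and log2(TPM + 0.1) (0.896, adjusted p = 0.202). With the replicate block, 1 member was called in EZH2i against Ctr (Tlr2, 1.43, adjusted p = 0.0464, edgeR) and 1 in IFN-γ + EZH2i against IFN-γ (Tmem173), and Ticam1 was called lower with IFN-γ against Ctr (-0.491, adjusted p = 0.0155, edgeR). In comparisons with Ctr, same-numbered libraries correlated at 0.44 to 0.54 for replicates 1 and 3 but at 0.0467 and 0.0854 for replicate 2. The numbers were therefore not taken to pair those comparisons, and whether these blocked calls hold was not settled. Over all alternatives the adjusted p of Tlr2 in EZH2i against Ctr ran from 0.0464 to 0.53 and that of Tmem173 under IFN-γ from 0.0448 to 1. The count over all genes for EZH2i against Ctr went from 77 to 308 with DESeq2, to 771 with the block and to 10 with limma without a filter, and for IFN-γ + EZH2i against IFN-γ from 67 to 264, 748 and 5. For IFN-γ against Ctr it went from 1662 to 4032 with the block and to 910 with limma without a filter. Pathway genes called with IFN-γ fell to 9 and 13 when 10 counts were required in every library, which removes genes that are off without IFN-γ.

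Signs turned only for fold changes that passed no test, and the cause was not tested. TPM on the log scale moved the median of all genes by 0.12, -0.14, 0.19 and -0.08 with a pseudocount of 1 in the order IFN-γ against Ctr, IFN-γ + EZH2i against EZH2i, EZH2i against Ctr and IFN-γ + EZH2i against IFN-γ. With limma on log2(TPM + 1), with or without a filter, EZH2i against Ctr was 0.0232 for Ifih1, 0.101 for Ddx58, 0.0949 for Mavs, 0.149 for Tlr3, 0.151 for Myd88 and 0.215 for Ticam1, under IFN-γ it was -0.0275 for Ifih1, -0.126 for Ddx58 and -0.0547 for Dhx58, and the interaction of Tlr2 was 0.0131. With log2(TPM + 0.1) the values were 0.134, 0.17, 0.105, 0.232, 0.291 and 0.251 for those 6 genes and -0.0329, -0.132 and -0.0821 for those 3. Length-scaled TPM gave -0.00292 for Ddx58 under IFN-γ and 0.0914 for Tlr3 against Ctr. Dhx58 under IFN-γ was -0.00605 without a filter and -0.00316 with 6 libraries. Leaving out 1 library, EZH2i against Ctr ranged from -0.462 to 0.558 for Ifih1, -0.39 to 0.133 for Dhx58, -0.617 to 0.123 for Tlr3, -0.206 to 0.124 for Myd88, -0.182 to 0.0431 for Ticam1 and -1.11 to 1.95 for Zbp1. Under IFN-γ it ranged from -0.225 to 0.351 for Ifih1, -0.0663 to 0.0839 for Ddx58, -0.119 to 0.112 for Dhx58, -0.221 to 0.1 for Mavs, -0.286 to 0.171 for Tlr3, -0.135 to 0.0836 for Myd88, -0.125 to 0.346 for Ticam1 and -0.271 to 0.0782 for Zbp1. Mavs with IFN-γ against EZH2i ranged from -0.277 to 0.0442, and the interaction of Zbp1 from -2.08 to 0.983.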
